A study of Mus musculus with 8 samples.

Results

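Choroid plexus and ependymal genes were examined in newborn (postnatal day 0) mouse cerebral cortex, either null for estrogen-related receptor gamma (ERRγ-/-, here ERRγ-null) or wild type. The group consisted of 9 genes chosen by name, Ttr, Sostdc1, Folr1, Clic6, Kl, Foxj1, Otx2, Enpp2 and Prlr, with every probe that the platform annotation assigns to them, out of 16561 genes and 25697 probes in all. Of the 9 genes, 7 had a probe, and they were read by 9 probes. Enpp2 and Prlr had no probe under their symbols, so their expression is not analysed here. Each genotype had 2 biological samples, and the RNA of each sample was hybridised to a first array and a b array of Illumina bead type, which gave 8 arrays. Nothing in the labels says whether a sample was 1 animal or a pool, or how the null allele was made, and the sources used here name neither strain nor sex. The comparison between genotypes asked which transcripts differ when this nuclear receptor is missing, at an age when the submitters describe the cortex as mainly neuronal. All p-values rest on the spread among these 4 samples alone, and that spread may be technical.

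The choroid plexus is a sheet of epithelium over a vascular core that hangs into the brain ventricles, secretes cerebrospinal fluid and forms the barrier between blood and that fluid. Ependymal cells line the ventricles, and their motile cilia move the fluid. Both lie next to the cortical wall rather than within it, so their transcripts in a cortex preparation depend on how much ventricle lining and plexus was taken along. In bulk tissue, fewer cells of a type and less RNA per cell cannot be told apart.

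Most choroid plexus members were not detected in either genotype. The probes of 5 members (Ttr, Folr1, Clic6, Kl and Otx2), 7 probes in all, gave a signal above background in 0 of 56 readings, where 47.8% of all probes were above background on no array. The smallest detection p among these readings, which sets a probe against background on its own array, was 0.0827, for Ttr on the first array of ERRγ-null sample 1. Of the 9 probes, 2 were above background (detection p under 0.05) on at least 4 of 8 arrays, whereas 45.0% of all probes met this rule. These were the probes of Sostdc1 and Foxj1.

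**Figure D1:**
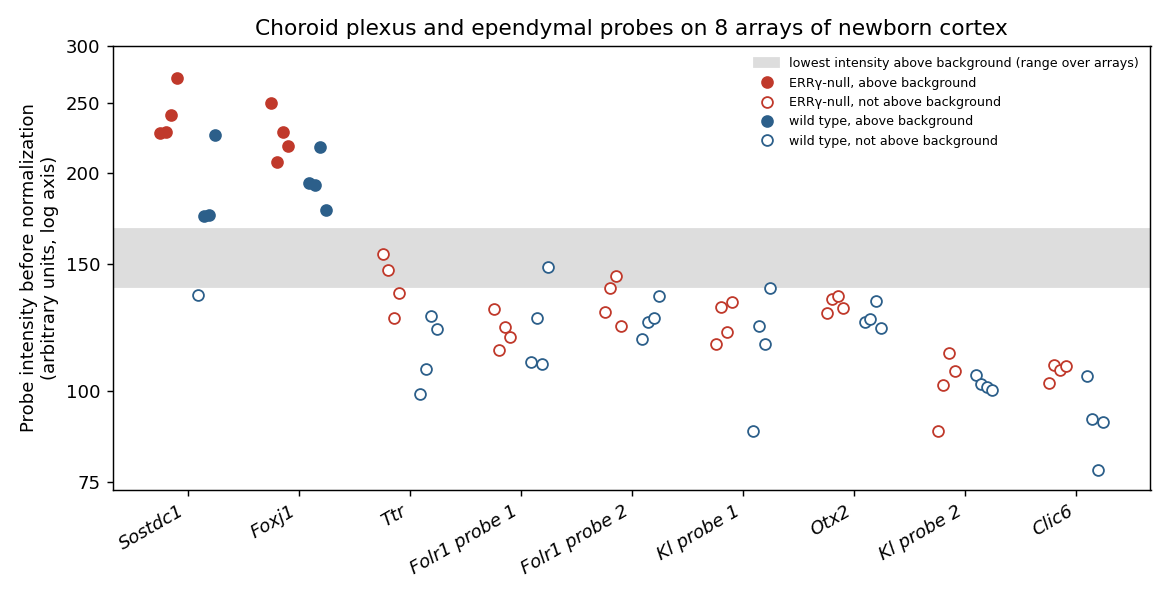
Intensity before normalization (arbitrary units, log axis) of the 9 probes on the 4 ERRγ-null arrays (red, left of each name) and the 4 wild-type arrays (blue, right). Filled points were above background and open points were not, and the grey band spans the lowest intensity above background on each array, from 139 to 168. Only Sostdc1 and Foxj1 have filled points, and Sostdc1 has 1 open point, at 136 on wild-type sample 1.

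Ttr encodes transthyretin, the carrier of thyroxine and, with retinol-binding protein, of retinol, and it is the most widely used marker of choroid plexus epithelium. Its probe intensity was 155, 147, 126 and 137 on the 4 ERRγ-null arrays, against 99.1, 107, 127 and 122 on the 4 wild-type arrays. All 8 readings lay within background (detection p from 0.0827 to 0.553). The normalized log2 signal of the 2 samples was 5.53 and 5.27 in ERRγ-null cortex and 4.97 and 5.19 in wild-type cortex, so that the samples did not overlap, at values that are not measurements of a transcript above background. The mean of 5.40 ± 0.18 in ERRγ-null and 5.08 ± 0.16 in wild-type cortex (SD, n = 2 each) gave a difference of 0.33, with a limma adjusted p of 0.778 in a fit over all 16561 genes without a filter.

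The receptors, the channel and the transcription factor of the choroid plexus were at background in the same way. Folr1, the folate receptor that carries folate into the cerebrospinal fluid, was read by 2 probes with intensities from 109 to 148 and from 118 to 144 over the 8 arrays. Their log2 signal was 5.08 ± 0.03 and 5.27 ± 0.08 in ERRγ-null cortex and 5.26 ± 0.01 and 5.32 ± 0.03 in wild-type cortex (SD, n = 2 each). Kl encodes klotho, the co-receptor of fibroblast growth factor 23, and its 2 probes ran from 88.2 to 139 and from 88.1 to 113. Their log2 signal was 5.13 ± 0.09 and 4.84 ± 0.14 in ERRγ-null cortex and 5.14 ± 0.14 and 4.91 ± 0.10 in wild-type cortex. Clic6 belongs to the chloride intracellular channel family. Its intensity ran from 77.8 to 109, and its log2 signal was 4.87 ± 0.05 in ERRγ-null and 4.79 ± 0.17 in wild-type cortex. Otx2 encodes a homeodomain transcription factor needed for choroid plexus development. Its intensity ran from 122 to 135, with a log2 signal of 5.24 ± 0.09 in ERRγ-null and 5.35 ± 0.14 in wild-type cortex. In the fit without a filter, the brightest probes of these 4 genes had differences from -0.11 for Otx2 to 0.08 for Clic6. The dimmer Folr1 probe differed by -0.19, also at background. Its samples, at 5.05 and 5.10 in ERRγ-null and 5.25 and 5.27 in wild-type cortex, did not overlap.

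Beside the members, the choroid plexus markers with a probe were Kcne2 and Aqp1, which differed in detection. Of 12 markers of choroid plexus epithelium, 8 had a probe, and 6 of those 8 were above background on no array. The sixth, beside the 5 members, was Kcne2, a potassium channel subunit gene (detection p from 0.153 to 0.618). The others with a probe were the member Sostdc1 and the water channel gene Aqp1, which was above background on 3 ERRγ-null and 4 wild-type arrays. Of 6 markers of ependymal or multiciliated cells, 4 had a probe. Foxj1 was above background on all 8 arrays and Rsph1, a radial spoke gene of motile cilia, on 2 ERRγ-null arrays and 0 wild-type arrays, whereas Dnah5, an axonemal dynein gene, and Mcidas, a regulator of multiciliated cells, were above background on 0 arrays. A probe at background does not show that a transcript is missing. Among cortical neuron markers, the probe of Neurod6 was also above background on 0 of 8 arrays, while Neurod2, Tbr1 and Stmn2 were above it on all 8. The other marker with a probe, Tubb3, was above it on 3 ERRγ-null arrays and 1 wild-type array.

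Sostdc1, which encodes a secreted modulator of BMP and Wnt signalling, was the member with the larger difference. Its intensity was 227, 228, 241 and 271 on the 4 ERRγ-null arrays, against 136, 175, 175 and 226 on the 4 wild-type arrays. The lowest of these, from the first array for wild-type sample 1, was not above background, since the lowest intensity above background on that array was 139. The normalized log2 signal was 6.85 and 6.64 on the arrays of ERRγ-null sample 1, and 7.05 and 7.31 on those of ERRγ-null sample 2. It was 5.90 and 6.45 on the arrays of wild-type sample 1, and 6.29 and 6.86 on those of wild-type sample 2. The brightest wild-type array therefore lay above both arrays of ERRγ-null sample 1, whereas the sample means of 6.74 and 7.18 in ERRγ-null and 6.17 and 6.58 in wild-type cortex did not overlap.

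Sostdc1 averaged 6.96 ± 0.31 in ERRγ-null and 6.38 ± 0.29 in wild-type cortex (SD, n = 2 each). The difference was 0.59 on the log2 scale (SE 0.19, 95% confidence interval from 0.19 to 0.98) and did not pass the test over all 8098 genes (limma adjusted p = 0.480). Of those 8098 genes, 0.0123% passed, which is 1 gene, and 0 of the 2 tested members did. At an unadjusted limma p under 0.05 with a higher value in ERRγ-null cortex, 1 of 2 members was counted, against 3.61% of all genes. None was counted as lower, against 3.62%. Samples of the genotypes did not overlap for 1 of 2 members and for 35.1% of all genes. Both ERRγ-null samples lay above both wild-type samples in 17.7% of the 8098 genes and below them in 17.3%. With 2 samples against 2, an exact two-sided permutation test cannot give a p under 0.333. The interval and p from limma draw each gene's variance towards that of the others, with 14.0 prior against 2 residual degrees of freedom.

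The size of the Sostdc1 difference depended on single samples and arrays. With ERRγ-null sample 1 left out it was 0.81 and with ERRγ-null sample 2 left out 0.37, against 0.38 when wild-type sample 1 was dropped and 0.79 when wild-type sample 2 was dropped (limma adjusted p from 0.0845 to 0.886). The first arrays alone gave 0.85 and the b arrays alone 0.32. Without any background correction it was 0.27, and 0.30 from the normalized values that the authors deposited. Leaving out that wild-type array with the probe at background gave 0.46 (limma adjusted p = 0.692). That array was also the dimmest, with a mean intensity of 390 over all probes, and mean intensity was 547 to 639 on ERRγ-null arrays against 390 to 565 on wild-type arrays. The part of array brightness in the difference was not tested.

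**Figure D2:**
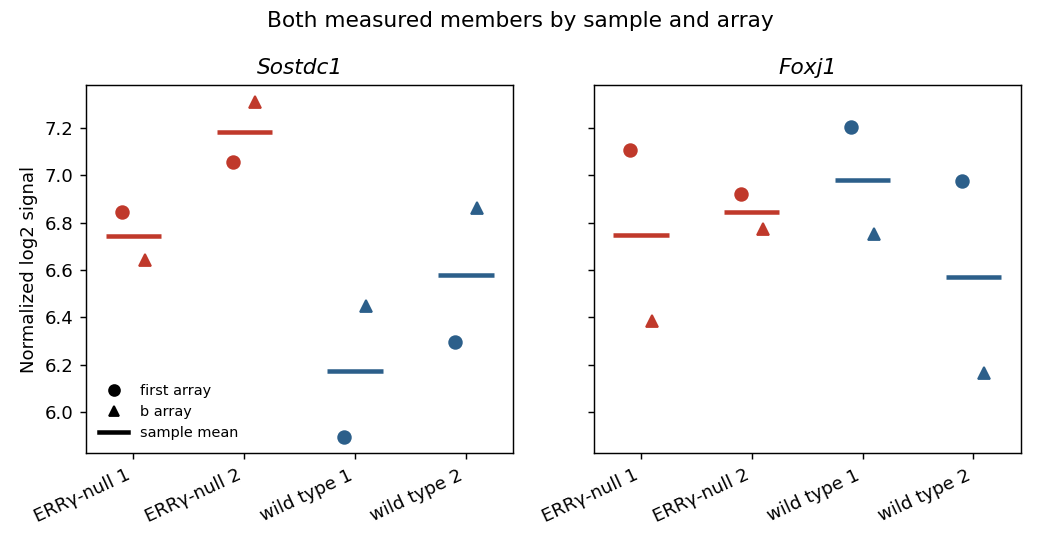
Normalized log2 signal of Sostdc1 (left panel) and Foxj1 (right panel) in the 2 ERRγ-null samples (red) and the 2 wild-type samples (blue). Circles are first arrays, triangles b arrays and bars sample means. Sostdc1 sample means are 6.74 and 7.18 in ERRγ-null and 6.17 and 6.58 in wild-type cortex, and Foxj1 is lower on the b array in each of the 4 samples.

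Foxj1 encodes the forkhead transcription factor that switches on the genes of motile cilia in ependymal and choroid plexus cells. It was above background on all 8 arrays, as 38.7% of all probes were, with intensities of 250, 207, 228 and 218 on the ERRγ-null arrays, against 194, 193, 218 and 178 on the wild-type arrays. The normalized log2 signal was 6.75 and 6.85 in the ERRγ-null samples, between the wild-type samples at 6.98 and 6.57. Means were 6.80 ± 0.07 in ERRγ-null and 6.77 ± 0.29 in wild-type cortex (SD, n = 2 each). Foxj1 thus differed by 0.02 (SE 0.17, 95% confidence interval from -0.34 to 0.38, limma adjusted p = 0.992). The interval, which is not adjusted over all genes, takes in differences of up to about that size in either direction. A larger difference could also go uncalled, as the 0.59 of Sostdc1 did. The sign of the Foxj1 difference was not stable. It was -0.029 when ERRγ-null sample 2 was dropped, -0.18 when wild-type sample 2 was dropped and -0.076 on the first arrays alone.

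The arrays of a sample differed more for Foxj1 than the genotypes did. The b array was lower than the first array in each of the 4 samples, with log2 differences of -0.72 and -0.15 in the ERRγ-null samples and -0.45 and -0.81 in the wild-type samples. A lower value on the b array in all 4 samples was found for 469 of 8098 genes (5.79%), and a higher value in all 4 for 511. The 8 arrays come from 4 samples and carry the lower Foxj1 values of the b arrays. Over these arrays, the genes most like Foxj1 were Ephx1 (r = 0.94), Mrpl58 (r = 0.93), Ginm1 (r = 0.92), Aars2 (r = 0.90) and Rabggta (r = 0.89). Pearson's r is given as a description. Sostdc1 and Foxj1 had a Pearson's r of -0.35 with each other over the same arrays.

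Genes that carry ions, water and nutrients across the choroid plexus were measured in part and did not pass the test. Of 33 such genes, 29 had a probe and 11 were tested. Among these, 6 were higher and 5 lower in ERRγ-null cortex, with a median log2 difference of 0.02 against 0.00 for all genes tested. None of the 11 had an unadjusted limma p under 0.05, where 7.22% of all genes did. The largest differences were negative. Slco1c1, a thyroxine transporter gene that brain endothelium also expresses, lay at 8.98 and 8.71 in the ERRγ-null samples and at 9.17 and 9.12 in the wild-type samples, a difference of -0.30 (limma adjusted p = 0.750). The cation channel gene Trpm3 lay at 6.57 and 6.55 in ERRγ-null and at 6.76 and 6.75 in wild-type cortex, a difference of -0.20 (limma adjusted p = 0.874). These were the 2 of 11 genes whose samples did not overlap between genotypes, both lower in ERRγ-null cortex, which is close to the 17.3% of all genes with that pattern. Aqp1 differed by -0.23, with overlapping samples, and was above background on 3 ERRγ-null and 4 wild-type arrays. The chloride cotransporter gene Slc12a2 differed by 0.04, its other probe by -0.18, and the monoamine transporter gene Slc29a4 differed by 0.02. Immature neurons are known to express Slc12a2 as well. The median changed sign with the samples used, at -0.04 when ERRγ-null sample 1 was dropped, -0.088 when wild-type sample 1 was dropped and -0.15 when wild-type sample 2 was dropped.

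Secreted factors, patterning genes and other choroid plexus genes also gave no call. Of 38 genes, 32 had a probe and 11 were tested, 8 of them higher and 3 lower in ERRγ-null cortex, with a median log2 difference of 0.09. Sulf1, an extracellular sulfatase gene, lay at 6.59 and 6.62 in the ERRγ-null samples and at 6.39 and 5.70 in the wild-type samples, a difference of 0.56 (SE 0.20, limma adjusted p = 0.509). It was above background on 4 ERRγ-null and 2 wild-type arrays. Vat1l lay at 8.73 and 8.88 in the ERRγ-null samples and at 9.26 and 9.16 in the wild-type samples, a difference of -0.40 (limma adjusted p = 0.585). These were the only members of the list with an unadjusted limma p under 0.05, 1 in each direction, against 3.61% of all genes higher and 3.62% lower. Cab39l differed by 0.25. The Wnt pathway modulator gene Dkk3 differed by 0.09 on its brightest probe and by 0.29 and -0.04 on the others, and Igfbp2, an insulin-like growth factor binding protein gene, by 0.08 and, on its other probe, by -0.07. The median was -0.024 when ERRγ-null sample 2 was dropped.

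Genes of motile cilia, the structures that Foxj1 controls, were higher in ERRγ-null cortex in most cases without a call. Of 76 genes, 47 had a probe and 15 were tested, 12 higher and 3 lower, with a median log2 difference of 0.08, where 50.6% of all tested genes were higher. Riiad1, a gene expressed in multiciliated cells, lay at 7.50 and 7.58 in the ERRγ-null samples and at 7.18 and 6.88 in the wild-type samples, a difference of 0.50 (SE 0.16, limma adjusted p = 0.480). Tekt1, which encodes a filament protein of the axoneme, lay at 7.04 and 7.27 in the ERRγ-null samples and at 6.38 and 6.89 in the wild-type samples. Its difference was 0.52 (SE 0.18, limma adjusted p = 0.509), and 0.20 on its other probe. Drc3, a gene of the nexin-dynein regulatory complex, differed by 0.37 (limma adjusted p = 0.690). In the other direction, Cfap53, a cilia and flagella associated gene, lay at 6.57 and 6.28 in the ERRγ-null samples and at 6.96 and 6.58 in the wild-type samples, a difference of -0.34 (limma adjusted p = 0.723), close in size to that of Drc3. Sntn, which encodes a protein of the ciliary tip, differed by -0.11. Samples did not overlap between genotypes for 4 genes that were higher (Riiad1, Tekt1, Drc3 and Tuba1a) and 2 that were lower (Cfap53 and Sntn) of the 15, where the shares over all genes were 17.7% and 17.3%. Of the 15 genes, 2 that were higher (Riiad1 and Tekt1) and 0 that were lower had an unadjusted limma p under 0.05, against 3.61% and 3.62% of all genes. A list of 15 genes is too short to read anything from the 0. The tubulin genes Tuba1a and Tubb4b, which neurons express throughout, differed by 0.04 and 0.13.

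The direction of the cilia list depended on single samples. The mean log2 signal of the 15 genes was 7.998 and 7.897 in the ERRγ-null samples and 7.94 and 7.72 in the wild-type samples. The median difference was -0.048 when wild-type sample 2 was dropped, and 0.12 when wild-type sample 1 was dropped. It was -0.01 with ERRγ-null sample 1 left out and 0.20 with ERRγ-null sample 2 left out. When all 47 genes with a probe were included regardless of detection, 38 were higher in ERRγ-null cortex (80.9%, against 48.8% of all 16561 genes), with the same median of 0.08. The mean log2 signal of these 47 was then 6.14 and 6.10 in the ERRγ-null samples and 6.05 and 5.99 in the wild-type samples. Of the 64 probes of this list, 38 were above background on no array, so most of these values carry background signal. Wild-type sample 2 was also the lowest sample for Foxj1, at 6.57.

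**Figure D3:**
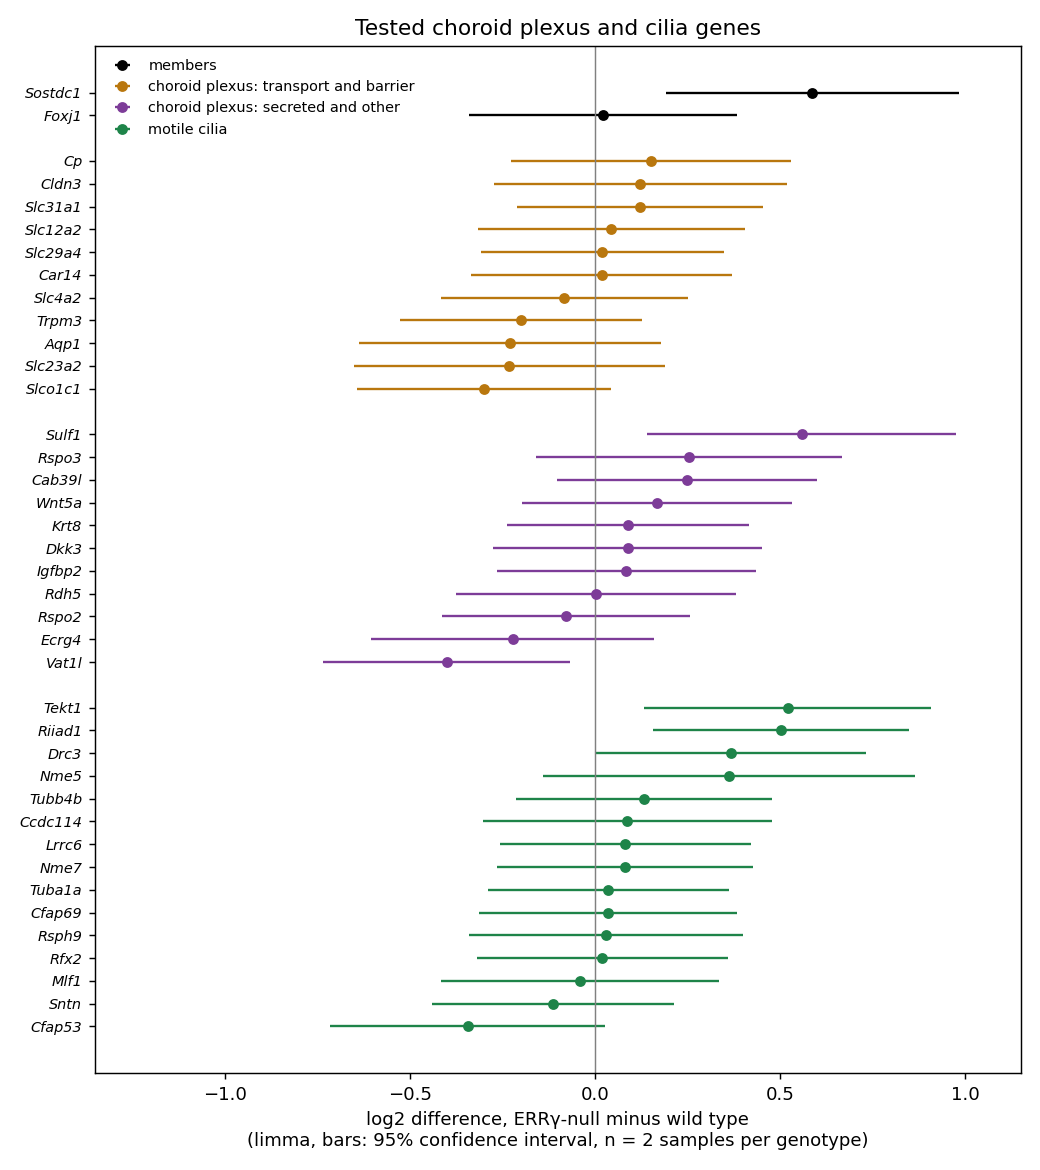
Log2 difference (ERRγ-null minus wild type) of both tested members and of all tested genes of the choroid plexus and motile cilia lists, with 95% confidence intervals from limma (n = 2 samples per genotype). Sostdc1, Sulf1, Riiad1, Tekt1 and Vat1l have intervals that leave out 0 before adjustment, and no gene passed after adjustment over 8098 genes.

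Genes that act with the members were set beside them, group by group. For transthyretin, 5 genes of thyroid hormone handling and response were tested (2 higher, 3 lower, median -0.12), among them the hormone-responsive gene Klf9 with 0.30, the thyroid hormone receptor gene Thra with 0.36 and Crym, which encodes a cytosolic thyroid hormone binding protein, with -0.17. For Folr1, 10 genes of folate transport and metabolism were tested (5 higher, 5 lower, median 0.00), with -0.32 for the mitochondrial folate carrier gene Slc25a32, -0.25 for the thymidylate synthase gene Tyms and -0.14 for Aldh1l2. The other kept probes of Tyms gave -0.024 and -0.020, and that of Aldh1l2 gave 0.03. For Kl, 4 genes of fibroblast growth factors and receptors were tested, all lower with a median of -0.19. Over all tested genes, 50.6% were higher. The 4 were Fgfr2 (-0.42), Fgfr1 (-0.24), Fgf15 (-0.14) and Fgfr3 (-0.02). None of these 19 genes had an unadjusted limma p under 0.05, where 7.22% of all genes did. For the chloride channel family, Clic4 differed by -0.15 and Clic1 by 0.11.

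A list drawn up around lysophosphatidic acid, the lipid that the product of Enpp2 generates, held the larger differences among these groups. It held receptor and lipid phosphatase genes. It also held Lipa (0.08), Enpp4 (0.01) and Enpp5 (-0.02), which do not encode receptors or known enzymes of this lipid. Of all 8 genes of the list that were tested, 5 were higher and 3 lower, with a median of 0.04. Lpar6, a receptor gene, lay at 6.62 and 6.33 in the ERRγ-null samples and at 6.89 and 7.12 in the wild-type samples, a difference of -0.53 (SE 0.17, limma adjusted p = 0.480). Lpar2, another receptor gene, went the other way, at 6.87 and 6.62 in the ERRγ-null samples and 6.23 and 6.34 in the wild-type samples, a difference of 0.46 (SE 0.16, limma adjusted p = 0.509). Plpp1, a lipid phosphatase gene, differed by 0.22. For Prlr, 5 genes of the JAK-STAT pathway downstream of the prolactin receptor were tested (1 higher, 4 lower, median -0.12), with Jak2 at -0.29, its other probe at -0.03, and the feedback inhibitor genes Socs3 at -0.29 and Cish at 0.17. Of the genes in both groups, only Lpar6 and Lpar2 had an unadjusted limma p under 0.05, where 7.22% of all genes did.

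Components of BMP and Wnt signalling, the pathways that the Sostdc1 protein modulates, had a median log2 difference of 0.03 over 14 tested genes, 8 higher and 6 lower. The follistatin gene Fst differed by -0.30, Lrp4, which encodes a receptor that the Sostdc1 protein is known to bind, by -0.26, and the BMP target gene Id2 by 0.12, its other probe by -0.02. No gene of this group had an unadjusted limma p under 0.05, where 7.22% of all genes did. Genes related to Otx2 and Foxj1 were all higher, 3 of 3 tested, where 50.6% of all tested genes were higher. Otx1, a cortical homeodomain gene, differed by 0.32, Foxj3 by 0.13 and Foxj2 by 0.05. The dimmest of the 3 Foxj3 probes gave -0.20.

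Markers of other cells that could lie beside the choroid plexus were measured in the same samples. Of 15 genes of meninges and fibroblasts, all with a probe, 2 were tested, Dcn and Igf2, with a median difference of 0.37, and the choroid plexus is also known to express Igf2. The mean log2 signal of this pair was 7.87 and 9.24 in the ERRγ-null samples and 8.27 and 8.09 in the wild-type samples, with overlapping samples for both genes. Of the 13 others, 9 were above background on no array, among them the defining markers Lum and Col1a1. The remaining 4 were Foxc1, the defining marker Slc6a13, Col1a2 and Crabp2, each above background on more ERRγ-null than wild-type arrays. Over all probes, 11376 to 12013 were above background on an ERRγ-null array and 11022 to 11607 on a wild-type array. Foxc1 was above background on 3 ERRγ-null and 0 wild-type arrays, Slc6a13 and Col1a2 on 1 and 0, and Crabp2 on 2 and 1. Their mean log2 signal went both ways. It was higher in ERRγ-null cortex for Foxc1 (6.02, against 5.54 in wild type) and Slc6a13 (5.35 against 4.77). It was lower for Col1a2 (5.51 against 5.72) and Crabp2 (5.92 against 5.96). ERRγ-null sample 2, which was highest for Dcn and Igf2, was also highest for Sostdc1, at 7.18. The part of such tissue in the Sostdc1 value was not tested, and without this sample the Sostdc1 difference was 0.37. Of 11 genes of cortical hem and hippocampus, the tissue next to the plexus, 3 were tested. All 3 were lower, with a median of -0.08, where 50.6% of all tested genes were higher. Of the defining markers of this tissue, Rspo2 and Prox1 were above background on all 8 arrays and Wnt3a and Lmx1a on 0. Medians of the other lists were -0.09 for endothelium and pericytes (10 tested), 0.05 for erythroid cells (3), -0.02 for thalamus and midbrain (6), -0.11 for radial glia (10), 0.06 for astrocytes (6) and 0.07 for cortical neurons (9). No gene of these lists passed the test. Of the cortical neuron genes, 6 were higher and 3 lower in ERRγ-null cortex. The marker Tubb3 differed by 0.50 (limma adjusted p = 0.519), a size close to that of the cilia gene Riiad1 (0.50).

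**Figure D4:**
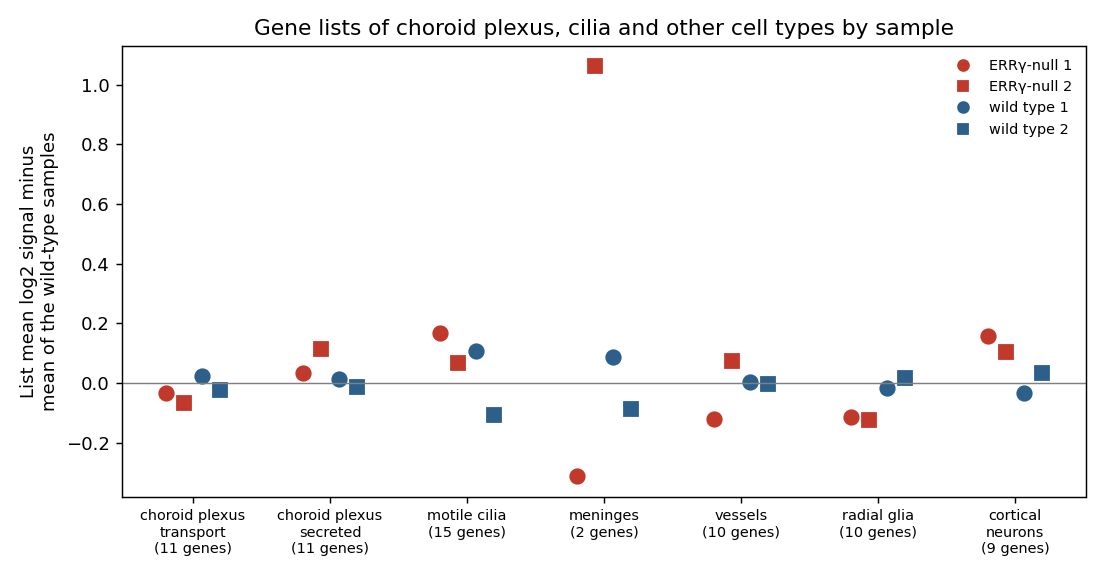
Mean log2 signal of the tested genes of 7 lists in each sample, drawn as the difference from the mean of the wild-type samples. Red marks ERRγ-null and blue wild type, with circles for sample 1 and squares for sample 2. The meningeal list stands apart in ERRγ-null sample 2 (9.24, against 7.87 in ERRγ-null sample 1), and the choroid plexus lists differ little between samples.

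Promoter sequence was at hand for 3 members, Kl, Otx2 and Prlr, in 8 windows of 300 bases (250 before to 50 after a transcription start, RefSeq, GRCm38.p6). Windows of 1 gene are alternative starts, and the first and second Otx2 windows overlap, so the 8 are not separate sequences and a count of 0 among them says little. The motif TNAAGGTCA, to which estrogen-related receptors are known to bind, was in 0 of the 8 windows on either strand, and in 1.28% of 32851 windows of all genes. Its core AAGGTCA, which it contains, was also in 0 of the 8 and in 4.72% of all windows. The motif TAATCC, bound by OTX proteins, was in 1 window, and 7.06% of all windows hold it. That window belongs to Otx2 itself, at chr14:48665060-48665359 on the minus strand, and it is shown because it is the only one with a match. The match, in capitals, is on the strand opposite to the gene, at positions -211 to -206 relative to the start. A match is a description of the letters and not evidence of binding, and the Otx2 probe was at background in both genotypes.
Otx2 promoter: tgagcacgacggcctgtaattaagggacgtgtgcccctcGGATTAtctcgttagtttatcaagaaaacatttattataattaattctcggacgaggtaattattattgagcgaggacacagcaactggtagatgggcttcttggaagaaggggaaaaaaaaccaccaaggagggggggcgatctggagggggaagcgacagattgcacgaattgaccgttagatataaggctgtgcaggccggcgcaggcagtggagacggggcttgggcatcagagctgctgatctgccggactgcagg

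The Esrrg probe does not check the genotype labels. It was above background on 0 of 8 arrays (detection p from 0.357 to 0.761), with a log2 signal of 4.94 ± 0.04 in ERRγ-null and 4.92 ± 0.01 in wild-type cortex (SD, n = 2 each). An ERRγ-null array had between 11376 and 12013 probes above background, and a wild-type array between 11022 and 11607. The number of arrays and samples limits the precision of each value.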

How the data were processed

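Expression was measured on Illumina bead arrays in 4 biological samples of newborn cortex, 2 per genotype, with 2 arrays each. The authors deposited linear bead intensity values for each probe on each array, whose distributions differ between arrays, with a detection p-value beside each, per the file headers. The submitters' processing notes name GenomeStudio, without settings. A second deposited intensity table, brought to a common distribution by the authors by an unstated method, was an alternative.

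In R 4.3.3 with limma 3.58.1, neqc corrected background through the detection p-values, with an offset of 16 and quantile normalization, and returned log2 values. Probes were kept at a detection p under 0.05 on at least 4 of 8 arrays (11568 of 25697). Of all probes, 23846 had 1 gene symbol and 1851 none. The brightest kept probe stood for a gene, and 8098 genes were tested. Arrays of a sample were averaged, and genotypes compared with lmFit and eBayes, two-sided, with Benjamini-Hochberg adjustment and a threshold of 0.05. Of these steps, only the model fit and its adjustment were tested on simulated data.

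Members and the 19 other gene lists were chosen with earlier results of these data known. Up to 3 genes with the smallest p were named from each choroid plexus, cilia and related list, the last being genes that act with or resemble the members. Also named were up to 2 bright genes of the choroid plexus and cilia lists. For a member above background on all arrays, the 5 genes most correlated with it were named. Lists of other cell types were given mainly by their medians and defining markers. Other genes were named in addition, after their values were seen, to complete a count (Fgfr3, Cfap53, Sntn, Foxc1, Col1a2, Crabp2), to describe a list (Lipa, Enpp4, Enpp5) or as cell markers. Other settings are given in the closing section. Same-numbered samples of the genotypes did not deviate together (correlation 0.01 over genes).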

Additional observations from a re-analysis of the deposited data

How the results depend on the processing

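No member passed under any of the 18 alternatives run. The Sostdc1 difference stayed positive in 18 of 18, from 0.27 to 0.85 (limma adjusted p from 0.0845 to 0.934). The Foxj1 difference was positive in 15 of 18, and was -0.076 on the first arrays alone and from -0.18 to 0.23 with each sample left out. The count of genes called, 1 in the analysis as reported, was 24 with median scaling (23 higher), 12 with the replicate number as a block (a replicate block on 2 pairs, limma adjusted p = 0.132 for Sostdc1), 0 without the filter, on first arrays, on b arrays, with robust variance and with kept probes averaged per gene, and from 0 to 22 with each sample left out. The block changed no call of a member, and nothing in the labels ties the same numbers together.

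Median scaling moved the median of all genes by 0.17. It gave medians of 0.15 for choroid plexus transport, 0.24 for the secreted list and 0.23 for cilia, which are -0.03, 0.07 and 0.06 relative to that shift, and on the same basis Foxj1 was -0.0057 and Sostdc1 0.51. The transport median was -0.11 on first arrays and -0.069 with kept probes averaged. With the dimmest array left out, a run chosen after seeing the data, the transport median was -0.033 and the secreted median 0.017. With each sample left out, medians ran from -0.15 to 0.053 for transport, from -0.024 to 0.21 for the secreted list and from -0.048 to 0.20 for cilia. The cause of these shifts was not tested. A fit without a sample leaves 1 sample in that genotype, assumed to vary like the other. Signal near background limits Sostdc1, Foxj1 and most listed genes.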
